A study of Mus musculus with 12 samples.

Results

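Mature white adipocytes from the mouse epididymal fat pad were examined for the genes that make, sense and inactivate prostaglandins while lipolysis was stimulated, inhibited or both. The set holds 10 genes picked by symbol from a table of 20295 genes: the cyclooxygenases Ptgs1 and Ptgs2, the terminal synthases Ptges, Ptges2, Ptgds and Ptgis, the prostaglandin E2 receptors Ptger2, Ptger3 and Ptger4, and the degrading enzyme Hpgd. Of the 10 genes, 9 passed the filter on low counts and were among the 13543 genes tested. Ptgds did not pass, with 0 to 7 reads in each library.

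Floated epididymal white adipocytes came from lean male C57/BL6J mice by collagenase digestion and were kept for 2 days in a hydrogel at 50000 cells per well. The 4 treatments had 3 libraries each. The vehicle cells received DMSO, and the ISO cells received isoproterenol, an agonist of all β-adrenergic receptors, for 3 h. The Lip cells received lipase inhibitors, named in the figure legends as Atglistatin against ATGL and CAY10499 against HSL. The methods list CAY10499 as an inhibitor of both HSL and MGL. The Lip+ISO cells received these inhibitors and then isoproterenol for 3 h. One figure legend of the study names another stimulus, SR-3420, for these cells, whereas the sample labels and the results text name isoproterenol, and the labels were followed. The labels name no genetic change, and all cells shared the digestion, the flotation and the hydrogel culture, so none of the groups stands for untouched tissue. The methods describe independent experiments, but neither they nor the labels say how many mice went into a library, so p-values here measure the spread between these libraries.

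Prostaglandins are made from arachidonic acid, which phospholipases or other lipases free from membrane or stored lipid. A cyclooxygenase turns it into prostaglandin H2, and terminal synthases turn that into prostaglandin E2, prostaglandin D2, prostacyclin and related lipids, which leave the cell and act on receptors nearby. In adipocytes the best known loop is an inhibitory one. Prostaglandin E2 acts through the EP3 receptor, which couples to Gi, to lower cAMP and restrain lipolysis, whereas the EP2 and EP4 receptors couple to Gs and raise cAMP. Fat cells are not the only source, since stromal cells and macrophages of adipose tissue also make prostaglandins.

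Total counts ranged from 22632220 to 43707557 per library, and no libraries held identical values. The library Lip replicate 3 stood apart on the third principal component, at -23.1 against -6.35 to 9.62 in the other 11, and no call on these genes that is given below was lost without it. Adipocyte markers had the highest summed level of the marker lists in every group. The summed level of 8 of them (Adipoq, Plin1, Cidec, Fabp4, Lpl, Lep, Pparg and Retn) averaged 36158 CPM (counts scaled to a common library size by edgeR's TMM factors) with vehicle, 33140 with ISO, 32447 with Lip and 31933 with Lip+ISO. Markers of other cells were low but not at 0, and their values stand beside the results they moved with. All of these are bulk libraries, in which fewer cells of a type and less RNA per cell cannot be told apart.

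With lipases active, isoproterenol raised 5 of the 9 tested prostaglandin genes and lowered 0. The 5 were Ptgs2, Ptger2, Ptgs1, Ptges and Ptger4, whose increases ran from 1.83-fold for Ptger4 to 5.37-fold for Ptgs2, and the same comparison raised 12.3% and lowered 13.9% of all genes tested, 26.2% in either direction (edgeR quasi-likelihood test, adjusted p of at most 0.05). No member fell at an unadjusted p below 0.05 in this fit either, and DESeq2 gave 5 higher and 0 lower. With replicate numbers as a block 6 were higher, with Ptgis added (adjusted p = 0.045), and 1 lower, Ptger3 (adjusted p = 0.043). In the fits with libraries left out, 2 to 6 were higher. Of the 5, 3 changed by at least 1 log2 unit (Ptgs2, Ptger2 and Ptgs1), as did 7.48% of all genes. The median change of the 9 genes was 0.90 on the log2 scale, against 0.00 for all genes. In 5 of the 9 the ISO libraries lay wholly above the vehicle libraries, where 43.3% of all genes had groups that did not overlap. In the same libraries the summed level of 6 fibroblast and progenitor markers was 631 to 833 CPM with ISO and 317 to 563 with vehicle, and that of the macrophage markers 92.8 to 140 and 48.2 to 61.5, whose part in these changes was not tested.

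With lipases inhibited, isoproterenol raised 1 of the 9, Ptgs2, and lowered 1, Ptger3. The background was 11.5% of genes higher and 15.8% lower, 27.3% in all. Only the change of Ptgs2 reached 1 log2 unit among the members (7.35% of all genes), and the groups did not overlap for 2 of the 9 (39.1% of all genes). The median of the 9 was 0.14. When the isoproterenol-treated groups were compared with each other, Lip+ISO against ISO, 2 of the 9 were lower with inhibitors (Ptger2 and Ptges) and 0 were higher, where 4.59% of all genes were lower and 4.36% higher, 8.94% in all. Of the 2, 1 changed by at least 1 log2 unit, Ptger2 (1.99% of all genes), and the groups did not overlap for 3 of the 9 (25.4% of all genes). In this comparison 4 members were lower and 1 higher at an unadjusted p below 0.05, among 3230 genes in either direction. DESeq2 called 3 lower, adding Ptger4, and 1 higher, Hpgd, where it called 13.6% of all genes. With replicate numbers as a block 4 were lower, with Ptger4 and Ptgs1 added, and 1 higher, Hpgd (19.2% of all genes). Each of the 12 libraries deviated most like those of its own number, so the counts without this block may be too low. The median of the 9 was -0.57 in the main fit, against -0.01 for all genes. This comparison shares its ISO libraries with that of ISO against vehicle, so the fall in the former and the rise in the latter are not separate evidence.

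The inhibitors alone changed 0 of the 9 (Lip against vehicle, edgeR), as they changed 0.0517% of all genes in either direction (0.00738% higher, 0.0443% lower and 0.0222% by at least 1 log2 unit). The groups did not overlap for 1 of the 9, Ptger2 (10.4% of all genes). At an unadjusted p below 0.05 there was 1 member, Ptger2, among 582 genes, and DESeq2 called 0 members. The test of whether the response to isoproterenol itself differed with and without inhibitors was the interaction term of the same fit. It called 0 of the 9 and 1.62% of all genes (0.901% with a positive term, 0.724% with a negative one, 0.746% by at least 1 log2 unit). A positive term means that the log2 change with isoproterenol was higher with inhibitors. For a gene that isoproterenol lowers, this can be a smaller fall. At an unadjusted interaction p below 0.05 were 3 members, Ptges, Ptger2 and Ptger4, among 1868 genes. DESeq2 called 0 of the 9 and 5.06% of all genes. Replicate numbers paired the libraries of both responses that this term compares, and with those numbers as a block it called 1 of the 9, Ptgs1 (-0.995, adjusted p = 0.0073), and 6.63% of all genes. For the other 8 members the response was not shown to differ in size between cells with and without inhibitors in either fit.

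**Figure D1:**
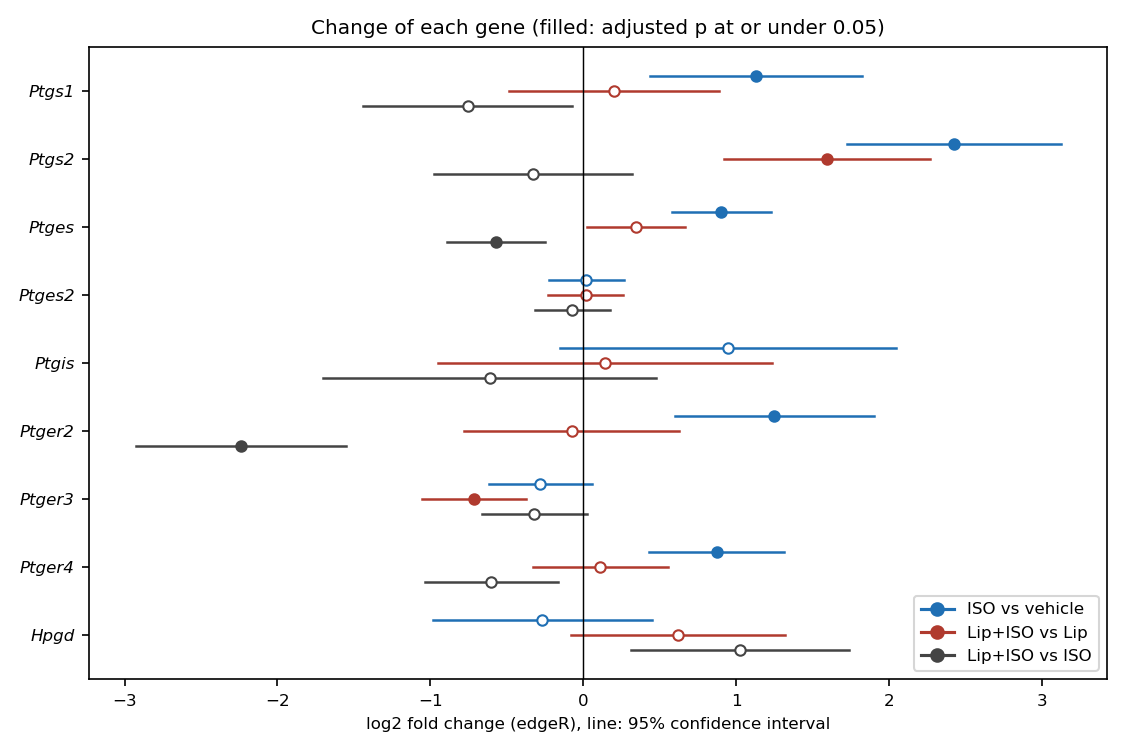
Log2 fold changes with their 95% confidence intervals (horizontal axis) for the 9 tested prostaglandin genes (vertical axis), with 1 point for each comparison in the colour of the key. Ptgs2 lies to the right of 0 in both isoproterenol comparisons, at 2.42 and 1.59, and Ptger2 lies farthest to the left, at -2.24, for Lip+ISO against ISO.

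Ptgs2 (NM_011198, mm9 chr1:151947254-151955142, plus strand) encodes cyclooxygenase-2, the inducible form of the enzyme. Its level was 11.1, 16.8 and 6.89 CPM in vehicle replicates 1 to 3 and 56.8, 59.7 and 69.7 CPM in the ISO replicates. It was 14.7, 14.8 and 19.5 CPM in the Lip replicates and 74.5, 40.9 and 32.9 CPM in the Lip+ISO replicates. Every library with isoproterenol lay above every library without it, and the Lip+ISO libraries spread from below to above the range of the ISO libraries. Ptgs2 was 5.37-fold higher with ISO than with vehicle, or 2.42 ± 0.32 as a log2 fold change with its SE (n = 3 per group, edgeR quasi-likelihood test, adjusted p = 1.6e-04), and 3.02-fold higher with Lip+ISO than with Lip, 1.59 ± 0.31 (adjusted p = 0.0019). Between Lip+ISO and ISO it differed by -0.33 with a 95% interval from -0.98 to 0.32 (adjusted p = 0.55), and the interaction was -0.83 ± 0.44 (adjusted p = 0.44). Both increases passed in each of the 15 fits that left out a library or a replicate number, where they ranged from 2.07 to 2.81 and from 1.12 to 1.97. The interval does not exclude a difference of close to 1 log2 unit between the isoproterenol-treated groups.

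The 250 bases before the start of Ptgs2 are shown because it was the member with the largest response and the only one of the 10 whose window held CGTCA, the core of the cAMP response element. In capitals are CGTCA, read here on the plus strand at 80 to 76 bases before the start, and the E-box CACGTG at 77 to 72, which overlap by 2 bases. The windows before Ptges and Ptger2, which also rose with ISO and were the members that were lower with Lip+ISO than with ISO, are set beside it and hold none of the motifs searched. Each is written 5′ to 3′ on the strand of its gene, from the mm9 genome at chr1:151947004-151947253 (plus), chr2:30758818-30759067 (minus) and chr14:45607536-45607785 (plus).
Ptgs2: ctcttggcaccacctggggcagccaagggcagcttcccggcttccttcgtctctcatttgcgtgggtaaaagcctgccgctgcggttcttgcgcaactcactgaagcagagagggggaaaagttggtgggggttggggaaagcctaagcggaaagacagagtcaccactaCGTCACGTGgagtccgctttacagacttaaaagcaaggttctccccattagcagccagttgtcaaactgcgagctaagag
Ptges: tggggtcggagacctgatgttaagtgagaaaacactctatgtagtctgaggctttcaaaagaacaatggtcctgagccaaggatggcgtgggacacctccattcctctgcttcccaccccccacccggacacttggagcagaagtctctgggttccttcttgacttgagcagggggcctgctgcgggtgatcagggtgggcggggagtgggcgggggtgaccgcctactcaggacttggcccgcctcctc
Ptger2: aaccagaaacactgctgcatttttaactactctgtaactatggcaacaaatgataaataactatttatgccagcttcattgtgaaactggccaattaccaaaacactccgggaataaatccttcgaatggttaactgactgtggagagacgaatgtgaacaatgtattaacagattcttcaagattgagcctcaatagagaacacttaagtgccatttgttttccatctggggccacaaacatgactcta
The 4 motifs were searched on both strands. The full cAMP response element TGACGTCA was in 0 of the 10 windows and in 2.14% of the 20292 windows of the table. CGTCA was in 1 of 10 (21.2% of all), CACGTG in 2 of 10, Ptgs2 and Ptges2 (6.92% of all), and the AP-1 motif TGANTCA in 1 of 10, Ptgds (5.91% of all). A match describes the letters of the window only.

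Ptgs1 (NM_008969, chr2:36085946-36107791, plus strand) encodes cyclooxygenase-1, the form most cells make without a stimulus. It stood at 15.2, 30.2 and 15.3 CPM with vehicle and at 37.0, 53.2 and 41.9 CPM with ISO. The Lip libraries had 19.6, 31.2 and 17.4 CPM and the Lip+ISO libraries 23.0, 37.1 and 18.1 CPM. The ISO libraries lay above all vehicle and Lip libraries, the Lip and Lip+ISO libraries overlapped, and replicate 2 was the highest of its group in all 4 groups. The rise with ISO was 1.13 ± 0.32 (2.19-fold, adjusted p = 0.020), and the difference with Lip+ISO against Lip was 0.20 with an interval from -0.49 to 0.89 (adjusted p = 0.70). Lip+ISO against ISO gave -0.76 ± 0.32 (adjusted p = 0.17), or -0.80 with the block on replicate numbers, where it passed (adjusted p = 9.2e-04). The interaction was -0.93 ± 0.45 (adjusted p = 0.39), or -0.995 with that block, where it passed too (adjusted p = 0.0073). In fits without the block, the call for ISO was lost without vehicle replicate 1 (0.96, adjusted p = 0.088), vehicle replicate 3 (0.96, adjusted p = 0.088) or ISO replicate 2 (0.97, adjusted p = 0.082). It was also lost there without replicate 1 (1.07, adjusted p = 0.11) or replicate 3 (1.00, adjusted p = 0.12) of every group.

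The ratio of Ptgs2 to Ptgs1 in CPM per kb, chosen after the values were seen and given without a test, was 0.311 to 0.502 in the vehicle libraries and 0.776 to 1.15 in the ISO libraries. It was 0.328 to 0.777 with Lip and 0.762 to 2.24 with Lip+ISO. Ptgs1 transcripts thus outnumbered those of Ptgs2 per length in all 6 libraries without isoproterenol.

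**Figure D2:**
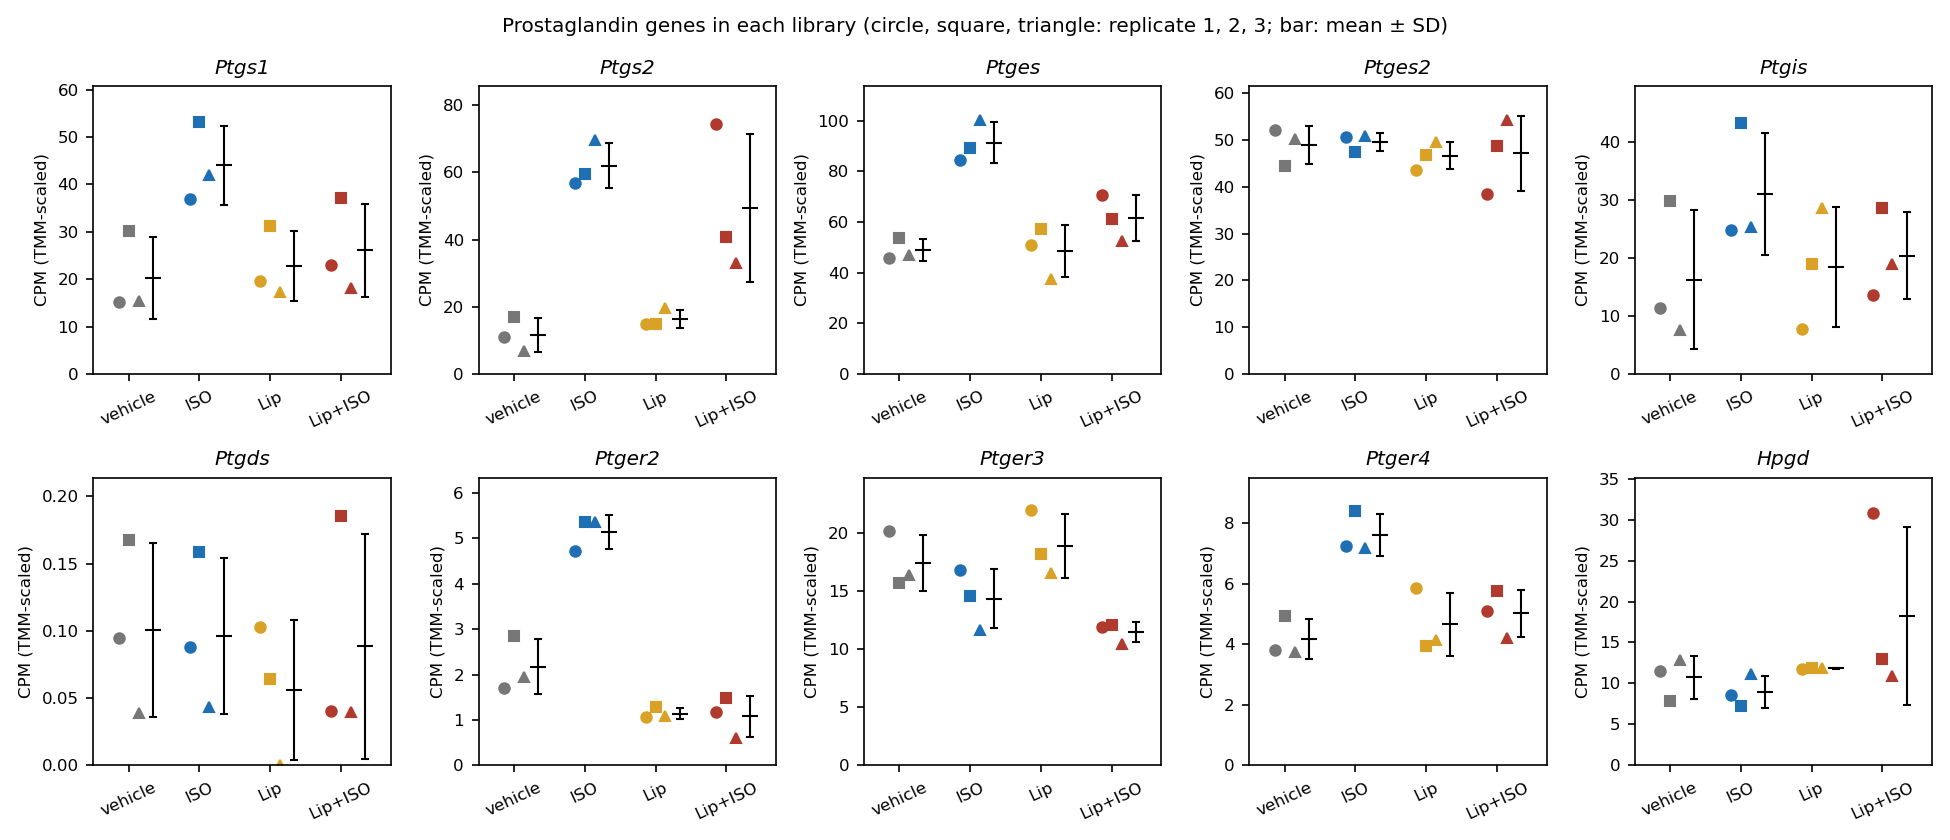
Level in CPM (vertical axes, each from 0) of the 10 prostaglandin genes in the 12 libraries, by treatment (horizontal axes), where symbols stand for replicates 1 to 3 and bars for the mean ± SD. For Ptgs2 all 6 libraries with isoproterenol lie above the 6 without, and for Ptger2 the 3 ISO libraries, at 4.71 to 5.36 CPM, lie above the other 9.

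Ptges (NM_022415, chr2:30744991-30758817, minus strand) encodes microsomal prostaglandin E synthase-1, which is commonly coupled to cyclooxygenase-2. Its level was 45.8, 53.8 and 46.9 CPM with vehicle and 84.5, 89.2 and 100.2 CPM with ISO. It was 50.8, 57.2 and 37.4 CPM with Lip and 70.8, 61.1 and 52.5 CPM with Lip+ISO. The ISO libraries lay above all other libraries, and the Lip and Lip+ISO libraries overlapped. Ptges rose 1.87-fold with ISO, 0.90 ± 0.15 (adjusted p = 7.8e-04), and passed in all 15 fits with libraries left out. The difference was 0.34 ± 0.15 with Lip+ISO against Lip, which missed the threshold (adjusted p = 0.11) and passed without Lip replicate 2 (0.47, adjusted p = 0.044) or Lip+ISO replicate 3 (0.46, adjusted p = 0.047). With inhibitors the level under isoproterenol was 1.48-fold lower, -0.57 ± 0.15 (adjusted p = 0.031). That call was lost without ISO replicate 2 (adjusted p = 0.075) or 3 (0.11), without Lip+ISO replicate 2 (0.076) or 3 (0.12), and without replicate 1 (0.056), 2 (0.16) or 3 (0.13) of every group, with values from -0.73 to -0.40. The interaction was -0.56 ± 0.21 (adjusted p = 0.25).

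Ptges2 (NM_133783, chr2:32251410-32258260, plus strand), a second microsomal prostaglandin E synthase that is made without a stimulus, gave the steadiest values of the set. All 12 libraries lay between 38.5 and 54.3 CPM, and the group means were 48.9 ± 4.04 (vehicle), 49.6 ± 1.94 (ISO), 46.7 ± 2.92 (Lip) and 47.1 ± 7.97 CPM (Lip+ISO, SD, n = 3 each). The difference between ISO and vehicle was 0.02 with an interval from -0.23 to 0.27 (adjusted p = 0.91), which leaves out a change of the size seen for Ptges.

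Ptgis (NM_008968, chr2:167028696-167066037, minus strand) encodes prostacyclin synthase. Its level was 11.4, 30.0 and 7.56 CPM with vehicle, 24.8, 43.3 and 25.3 CPM with ISO, 7.83, 19.0 and 28.6 CPM with Lip and 13.7, 28.6 and 19.1 CPM with Lip+ISO. Groups overlapped in every comparison, and the libraries of a group differed by up to 3.96-fold among themselves. ISO against vehicle gave 0.94 ± 0.51 with an interval from -0.15 to 2.04 (adjusted p = 0.19). Replicate numbers paired the libraries in this comparison, and once those numbers entered as a block the value was 1.01 and passed (adjusted p = 0.045). It also passed without vehicle replicate 2, which had the highest level of the vehicle libraries (1.70, adjusted p = 0.023). Ptgds (NM_008963, chr2:25322232-25325269, minus strand), the lipocalin-type prostaglandin D synthase, was at or near the floor of 3 reads throughout, and no fold change is given for it.

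Ptger2 (NM_008964, chr14:45607786-45623495, plus strand), the Gs-coupled EP2 receptor, was among the rarest of these transcripts and gave the largest fall. It was at 1.71, 2.85 and 1.96 CPM with vehicle and at 4.71, 5.36 and 5.36 CPM with ISO. The Lip libraries had 1.06, 1.29 and 1.08 CPM and the Lip+ISO libraries 1.17, 1.48 and 0.596 CPM, which are 15 to 40 reads each. The ISO libraries were above all others, the vehicle libraries lay below them, and the 6 libraries with inhibitors lay below every vehicle library. ISO raised Ptger2 2.38-fold, 1.25 ± 0.30 (adjusted p = 0.0090), while the change with Lip+ISO against Lip was -0.07 with an interval from -0.78 to 0.63 (adjusted p = 0.90). With isoproterenol, inhibitors left it 4.73-fold lower, -2.24 ± 0.32 (adjusted p = 8.0e-04), which held in all 15 fits with libraries left out, from -2.53 to -1.92. Without isoproterenol the inhibitors gave -0.92 ± 0.31, with an unadjusted p of 0.012 (edgeR) that did not pass the correction (adjusted p = 0.79). The interaction was -1.32 ± 0.44 (adjusted p = 0.19). The rise with ISO was lost when replicate 1 (1.16, adjusted p = 0.082) or replicate 3 (1.15, adjusted p = 0.057) of every group was left out.

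Ptger4 (NM_001136079, chr15:5183399-5194187, minus strand), the other Gs-coupled receptor of the set, was at 3.82, 4.95 and 3.76 CPM with vehicle and 7.27, 8.41 and 7.18 CPM with ISO. It was at 5.87, 3.96 and 4.15 CPM with Lip and 5.09, 5.78 and 4.21 CPM with Lip+ISO. As with Ptger2, the ISO libraries were above all others, but here the Lip and Lip+ISO libraries overlapped those with vehicle. The rise with ISO was 0.87 ± 0.20 (1.83-fold, adjusted p = 0.0076), and it was lost without replicate 3 of every group (0.84, adjusted p = 0.070). The change with Lip+ISO against Lip was 0.11 with an interval from -0.33 to 0.55 (adjusted p = 0.75). Lip+ISO against ISO gave -0.60 ± 0.20 and missed the threshold (adjusted p = 0.089), although DESeq2 called it (-0.59, adjusted p = 0.045). It also passed with replicate numbers as a block (-0.61, adjusted p = 0.038). The interaction was -0.76 ± 0.29 (adjusted p = 0.26).

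Ptger3 (NM_011196, chr3:157229856-157307722, plus strand), the Gi-coupled EP3 receptor, was the only member that isoproterenol lowered, and this was in the presence of inhibitors. Its level was 20.2, 15.7 and 16.4 CPM with vehicle and 16.8, 14.6 and 11.7 CPM with ISO, groups that overlapped. It was 21.98, 18.2 and 16.5 CPM with Lip and 11.96, 12.1 and 10.5 CPM with Lip+ISO, where every Lip+ISO library lay below every Lip library. The fall with Lip+ISO against Lip was -0.71 ± 0.16 (1.64-fold lower, adjusted p = 0.0042) and passed in all 15 fits with libraries left out. ISO against vehicle gave -0.28 with an interval from -0.62 to 0.05 (adjusted p = 0.20), and -0.29 once replicate numbers entered as a block, which passed (adjusted p = 0.043). The interaction was -0.43 ± 0.22 (adjusted p = 0.42), so the responses with and without inhibitors were not shown to differ.

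Per length, EP3 transcripts outnumbered those of EP2 and EP4 together in every library, and least so with ISO. The ratio of Ptger3 to the sum of Ptger2 and Ptger4 in CPM per kb, again chosen after the values were seen and given as a description, was 3.46 to 6.27 with vehicle, 1.62 to 2.43 with ISO, 5.32 to 5.88 with Lip and 2.81 to 3.65 with Lip+ISO. The ISO libraries had the lowest ratios and did not overlap those of any other group.

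Hpgd (NM_008278, chr8:58773349-58799843, plus strand) encodes 15-hydroxyprostaglandin dehydrogenase, which starts the breakdown of prostaglandin E2. It was at 11.5, 7.84 and 12.9 CPM with vehicle, 8.54, 7.30 and 11.1 CPM with ISO, 11.8, 11.8 and 11.9 CPM with Lip and 30.7, 13.04 and 10.9 CPM with Lip+ISO. Replicate 1 of Lip+ISO stood well above the rest, and the groups overlapped in every comparison. ISO against vehicle gave -0.27 ± 0.33 (adjusted p = 0.58). Lip+ISO against ISO gave 1.03 ± 0.33 and missed the threshold (adjusted p = 0.075), while DESeq2 called it (1.04, adjusted p = 0.015). So did the fit with replicate numbers as a block (0.96, adjusted p = 0.037). Without Lip+ISO replicate 1 the value was 0.42 (adjusted p = 0.27), and without Lip+ISO replicate 3 it was 1.30 and passed (adjusted p = 0.029). The ratio of Hpgd to the summed cyclooxygenases in CPM per kb was 0.313 to 1.07 with vehicle and 0.129 to 0.206 with ISO, and 0.477 to 0.660 with Lip and 0.332 to 0.687 with Lip+ISO, a description chosen after the values were seen.

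Levels can be compared between these genes only per length. With vehicle the order in CPM per kb was Ptges2 at 25.1 ± 2.07, Ptges at 13.4 ± 1.18, Ptgis at 9.32 ± 6.84, Ptger3 at 8.65 ± 1.21, Ptgs1 at 7.06 ± 3.00 and Hpgd at 6.26 ± 1.52 (SD, n = 3). Ptgs2 at 2.80 ± 1.203, Ptger4 at 1.26 ± 0.202, Ptger2 at 0.576 ± 0.16 and Ptgds at 0.125 ± 0.0802 followed. From Ptges to Hpgd the ranges of the mean ± SD of neighbours overlapped, and those of the other neighbours did not. With ISO, Ptges reached 25.02 ± 2.21, level with Ptges2 at 25.4 ± 0.992, and Ptgs2 reached 15.0 ± 1.64, level with Ptgs1 at 15.4 ± 2.90.

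**Figure D3:**
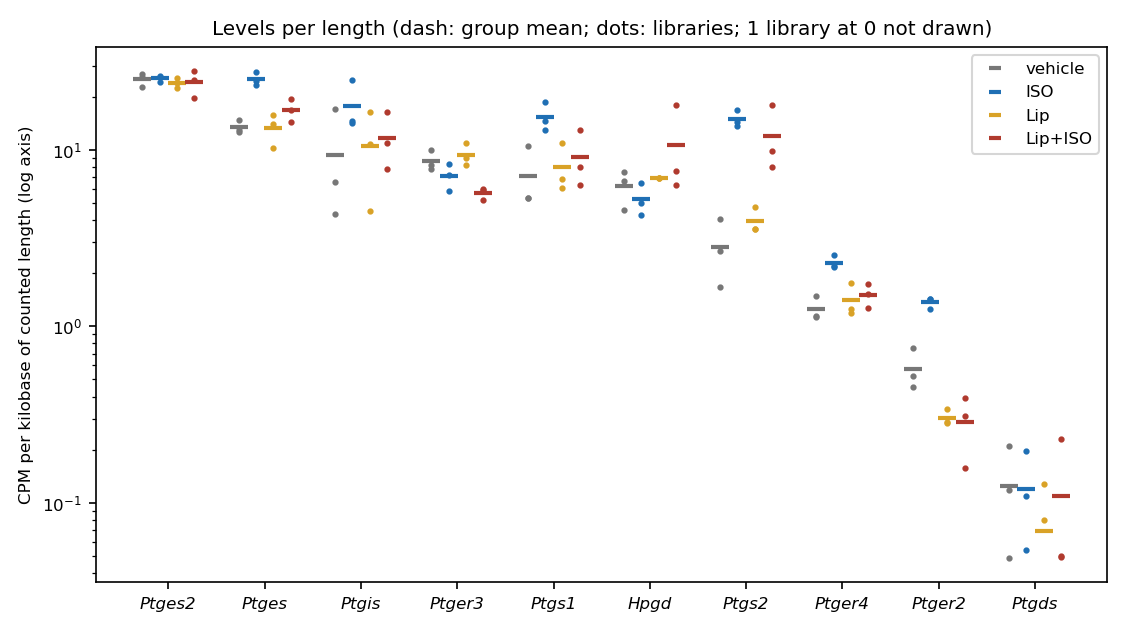
Level in CPM per kb (log axis) of the 10 prostaglandin genes in the 4 groups, where dashes mark group means and dots the single libraries, and the library in which Ptgds was at 0 is not drawn. Ptges2 is highest with vehicle at 25.1 and is matched by Ptges at 25.02 with ISO, and Ptger2 and Ptgds lie lowest.

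Several marker lists of cells other than adipocytes had their highest mean with ISO, like every member called higher with ISO (Ptgs2, Ptger2, Ptgs1, Ptges and Ptger4). The summed level of 6 fibroblast and progenitor markers was 317 to 563 CPM with vehicle, 631 to 833 with ISO, 435 to 444 with Lip and 377 to 521 with Lip+ISO, and 3 of the 6 rose with ISO and 3 were lower with Lip+ISO than with ISO. The summed level of 8 macrophage markers, of which 7 were tested, was 48.2 to 61.5 CPM with vehicle, 92.8 to 140 with ISO, 50.6 to 56.8 with Lip and 58.8 to 104 with Lip+ISO. Of these 4 rose with ISO and 0 were lower with Lip+ISO than with ISO in the edgeR test, while Cd163 had 0 to 6 reads in every library. Endothelial markers summed to 77.9 to 149 CPM with vehicle, 135 to 274 with ISO, 40.2 to 140 with Lip and 59.8 to 175 with Lip+ISO, and 0 of 6 passed in any comparison. Mesothelial markers summed to 21.0 to 46.8, 55.3 to 65.9, 12.8 to 54.7 and 37.3 to 46.1 CPM in the same order, and 1 of 5 rose with ISO. Smooth muscle and pericyte markers summed to 203 to 325, 195 to 301, 253 to 346 and 152 to 217 CPM, and 0 of 5 passed with ISO against vehicle (edgeR). Mast cell markers summed to at most 8.68 CPM and neutrophil markers to at most 4.61 CPM in any library, and 1 of the 3 and 1 of the 1 tested rose with ISO. Of the 8 adipocyte markers, 2 fell with ISO and 1 was higher with Lip+ISO than with ISO. With Lip+ISO against Lip, 1 macrophage and 1 mesothelial marker were higher in the edgeR test. In that comparison 1 smooth muscle and pericyte marker and 1 adipocyte marker were lower, and no marker of the other lists passed. For Ptgs2 with inhibitors the fibroblast and progenitor sums of the groups compared overlapped (435 to 444 and 377 to 521 CPM), whereas the macrophage sums did not (50.6 to 56.8 and 58.8 to 104 CPM). The part of these cells in the changes of the prostaglandin genes was not tested. The markers of epididymal epithelium were at or near 0, with a summed level of at most 0.476 CPM and Lcn9 at 0 in all 12 libraries.

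**Figure D4:**
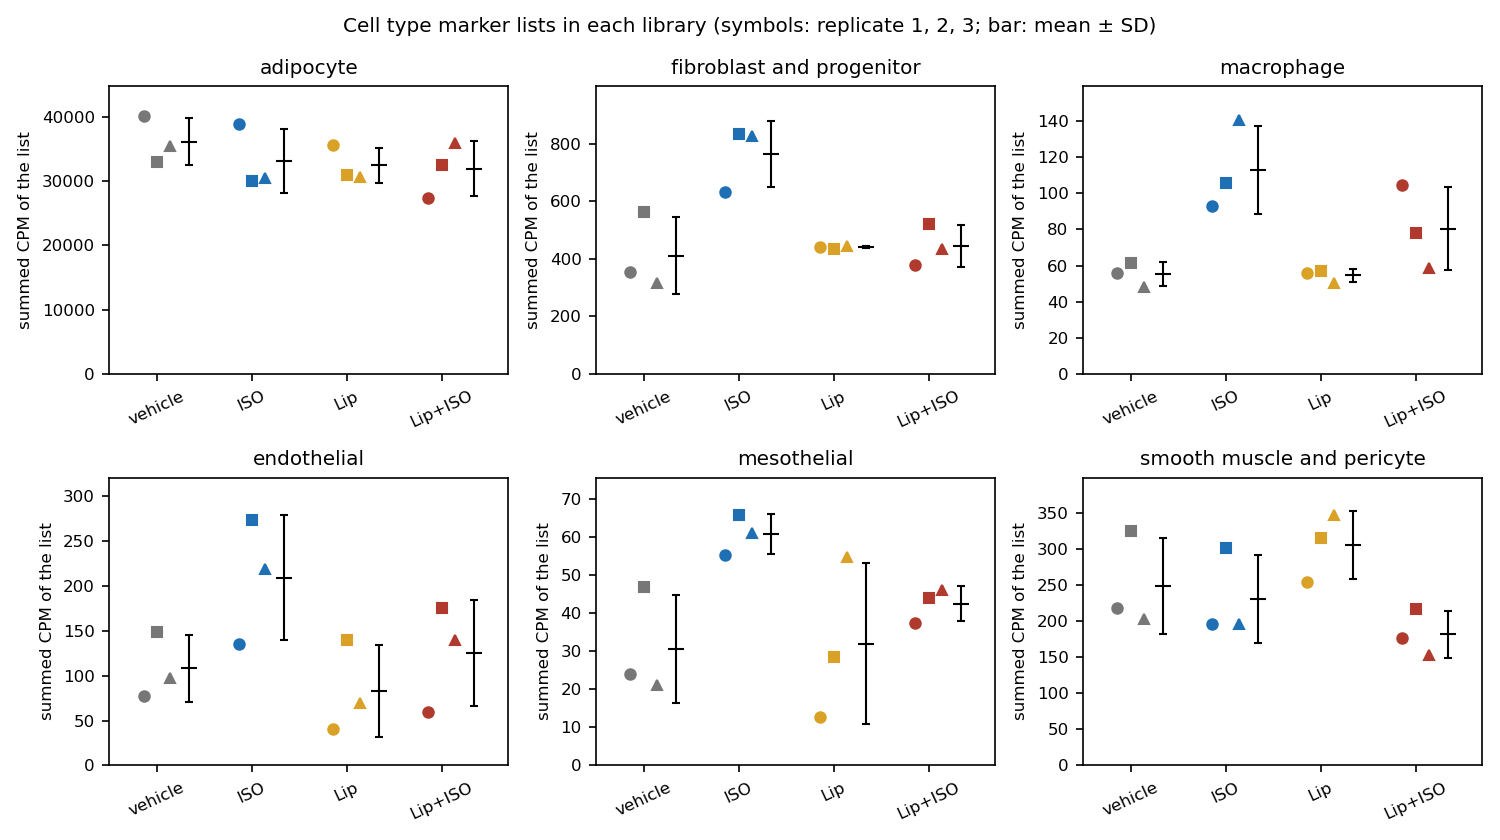
Summed level in CPM (vertical axes, each from 0) of 6 marker lists in the 12 libraries, by treatment (horizontal axes), where symbols stand for replicates 1 to 3 and bars for the mean ± SD. The fibroblast and progenitor list is at 631 to 833 in the ISO libraries and at 317 to 563 in the other 9, and the group means of the adipocyte list run from 31933 to 36158.

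In the rest of the pathway a few single genes passed, where 12.3% of all genes tested rose with ISO and 11.5% with Lip+ISO against Lip (edgeR). Whether the short gene lists below differ from these shares was not tested. Of 11 genes that free arachidonic acid or its precursors, 9 were tested and 1 rose, Dagla, a diacylglycerol lipase, from 9.37 ± 1.08 CPM with vehicle to 30.7 ± 6.34 with ISO (SD, n = 3), or by 1.71 ± 0.15 on the log2 scale (SE from edgeR, adjusted p = 5.8e-06). It rose as well with inhibitors present, from 9.58 ± 0.719 to 40.7 ± 4.79 CPM, 2.08 ± 0.15 (adjusted p = 5.9e-07). The adipocyte phospholipase Pla2g16 was at 584 ± 84.2 CPM with vehicle and 437 ± 91.5 with ISO and did not pass.

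Of 8 further prostanoid synthases, 2 rose with ISO. They were Ptges3, the cytosolic prostaglandin E synthase and a co-chaperone, at 0.33 ± 0.08 (adjusted p = 0.011), and Tbxas1, thromboxane synthase, at 1.67 ± 0.37 (adjusted p = 0.0059) from 8 to 13 reads with vehicle and 25 to 67 with ISO. With inhibitors 1 rose, Akr1b7, an aldo-keto reductase with prostaglandin F synthase activity, from 0 to 4 reads with Lip to 12 to 30 with Lip+ISO (adjusted p = 0.0096). It has close paralogs that may share its reads, and it is named, after its values were seen, as the only gene of its list that passed there. Of 6 other prostanoid receptors 4 were tested and 0 passed in any comparison (edgeR), among them Ptger1, which encodes EP1, at 25.5 ± 2.03 CPM with vehicle and 23.5 ± 3.93 with ISO, and the prostacyclin receptor Ptgir at 22.6 ± 6.37 and 31.1 ± 6.07.

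Of 4 genes for prostaglandin transport and reduction, 1 rose in both isoproterenol comparisons. Slco2a1, the transporter that takes prostaglandins up into cells, went from 48.7 ± 2.64 to 125.6 ± 44.9 CPM without inhibitors, 1.37 ± 0.21 (adjusted p = 4.6e-04), and from 65.1 ± 5.79 to 140 ± 30.5 CPM with them, 1.11 ± 0.21 (adjusted p = 0.0014). None of these lists had a member that passed in Lip+ISO against ISO, in Lip against vehicle or in the interaction (edgeR).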

How the data were processed

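RNA was sequenced from 12 libraries of cultured mouse white adipocytes, 3 per treatment. Per the labels and the study's methods, the authors mapped reads to mm9 with STAR 2.4.2a, kept 1 read per position and length with HOMER and made raw counts per RefSeq gene with iRNA-seq, where the limit per position can lower the counts of the most abundant genes. The deposited counts per gene were used as they are, 1643 genes without a count included in the table. The deposited lengths of the counted exons served for levels per kb. Groups came from the sample titles and labels.

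Genes were filtered (filterByExpr) and tested with edgeR 4.0.16 (R 4.3.3, TMM scaling, two-sided quasi-likelihood test, all 4 groups in 1 fit, Benjamini-Hochberg adjustment over 13543 genes, threshold 0.05). Confidence intervals used the fit's degrees of freedom at 95%. CPM were scaled by TMM factors (0.924 to 1.07). Log2 CPM had a prior count of 2, and fold changes had the default prior count of the edgeR fit. The common biological coefficient of variation was 0.163. A second fit, which took replicate numbers as blocks, was run for every comparison and for the interaction. Same-numbered libraries of 2 groups deviated together, with correlations of deviations from 0.0373 to 0.369, over 0.1 in 11 of 12 pairs. The pair at 0.0373 was replicate 3 of Lip+ISO against ISO. Each of the 12 libraries was closest to its own number, so the libraries of that comparison were not shown to be unpaired. Its main values come from the fit without blocks, and blocks moved its share of genes called from 8.94% to 19.2%. DESeq2 1.42.0, other scalings, no filter, fits on 2 groups and fits with libraries left out were the alternatives. The scripts were tested on simulated data.

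Promoter windows were read from the NCBIM37 (mm9) genome, 250 bases before each start in the table. RefSeq windows on GRCm38.p6, from 250 bases before to 50 after the start, held 9 of the 10 members, and the same members matched each motif, which were in 1.79% (TGACGTCA), 20.8% (CGTCA), 7.15% (CACGTG) and 7.81% (TGANTCA) of 32851 windows. The members are the 10 symbols given, the genes described by likeness are the 3 with the highest Pearson correlation over the 12 libraries, and pathway genes are named where they passed a test. Members, gene lists and markers were chosen with earlier results of these data known. Numbers of reads limit the rarest genes, Ptger2 and Ptgds.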

Additional observations from a re-analysis of the deposited data

How the results depend on the processing

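Outside the fits with libraries left out, 247 of 261 single-gene values kept direction and side of the threshold, 8 newly passed, 6 changed sign and 0 lost their call. The causes were not tested. With a log2 change of at least 1 also required, ISO against vehicle kept 3 higher, Lip+ISO against Lip 0 lower and Lip+ISO against ISO 1 lower. With DESeq2, 1 member was higher with Lip+ISO than with ISO. With replicate numbers as a block, ISO against vehicle had 6 higher (with Ptgis 1.01, adjusted p = 0.045) and 1 lower (Ptger3 -0.29, adjusted p = 0.043), Lip+ISO against ISO had 1 higher (Hpgd 0.96, adjusted p = 0.037) and 4 lower (with Ptgs1 -0.80, adjusted p = 9.2e-04, and Ptger4 -0.61, adjusted p = 0.038) and the interaction 1 lower (Ptgs1 -0.995, adjusted p = 0.0073). For Lip+ISO against ISO, same-numbered libraries deviated together less in replicates 1 and 3 (correlations of 0.102 and 0.0373) than in replicate 2 (0.311). The block changed no other call on a member. Signs turned only near 0: Ptges2 at -0.019 (ISO against vehicle) and -0.10 (Lip+ISO against Lip) with library totals, -0.0069 (Lip+ISO against Lip) with no filter, 0.0145 (interaction) with DESeq2 size factors and 0.0147 with DESeq2, and Ptges at 0.022 (Lip against vehicle) with library totals.

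With libraries left out, members higher with ISO against vehicle numbered 2 to 6, higher with Lip+ISO against Lip 1 to 2, and with Lip+ISO against ISO 0 to 1 higher and 1 to 2 lower. Values that turned sign, none past the threshold, ranged as follows. For Ptges2 they were -0.055 to 0.068 (ISO against vehicle), -0.083 to 0.14 (Lip+ISO against Lip), -0.14 to 0.022 (Lip against vehicle), -0.17 to 0.077 (Lip+ISO against ISO) and -0.10 to 0.12 (interaction). For Lip+ISO against Lip they were -0.14 to 0.49 (Ptgs1), -0.20 to 0.66 (Ptgis), -0.36 to 0.23 (Ptger2) and -0.11 to 0.32 (Ptger4). For Lip against vehicle they were -0.12 to 0.57 (Ptgs1), -0.15 to 0.14 (Ptges), -0.62 to 0.95 (Ptgis), -0.021 to 0.23 (Ptger3), -0.11 to 0.40 (Ptger4) and -0.048 to 0.29 (Hpgd). Of all genes, Lip+ISO against ISO called 8.94%, but 5.94% with no filter, 13.6% with DESeq2, 5.64% on 2 groups and 19.2% with the block. The interaction called 1.62%, but 5.06% with DESeq2 and 6.63% with the block, and Lip against vehicle 0.0517%, but 0.421% with DESeq2, 0.0851% on 2 groups and 0.199% with the block. With libraries left out, the share ranged from 13.9% to 28.4% for ISO against vehicle (17.3% and 16.8% when vehicle replicate 1 or 3 was dropped, 13.9% when number 2 or 3 was dropped from every group), from 15.4% (without replicate 2 of every group) to 26.7% for Lip+ISO against Lip, and from 2.80% to 8.76% for Lip+ISO against ISO (5.32% and 5.36% once ISO replicate 2 or 3 was dropped, 5.66% after dropping the third library of Lip+ISO, 2.80% and 3.23% when number 2 or 3 was dropped from every group). It ranged from 0.111% to 2.38% for the interaction, where it fell to 0.969% and 0.837% when vehicle replicate 1 or 3 was dropped, to 0.863% and 0.902% for ISO replicate 2 or 3, to 1.02% and 0.885% for Lip replicate 1 or 2, and to 0.828%, 0.111% and 0.279% when number 1, 2 or 3 was dropped from every group. For Lip against vehicle it ranged from 0% to 0.109% and moved by over 1.5 times in 13 of the 15 fits. Depth limits Ptger2, with 15 to 237 reads, and Ptgds.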

Other observations

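The lipoxygenase branch, which turns arachidonic acid into leukotrienes and hydroxy fatty acids, had 4 tested genes of 6. Of these 1 rose, Alox5ap, the partner protein of 5-lipoxygenase, where 12.3% of all genes tested rose with ISO. Alox5ap went from 1.58 ± 0.235 CPM with vehicle to 3.74 ± 0.284 CPM with ISO (SD, n = 3), a log2 difference of 1.24 ± 0.33 in edgeR (SE, adjusted p = 0.016). It also passed with Lip+ISO against Lip at 0.97 ± 0.33 (adjusted p = 0.046), although the libraries of those groups overlapped, from 1.41 ± 0.348 to 2.78 ± 1.21 CPM. Alox5ap is known from leukocytes, and the macrophage markers summed to 92.8 to 140 CPM with ISO and to 48.2 to 61.5 with vehicle, the part of which was not tested.

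Over the 12 libraries, the genes whose log2 CPM ran most like that of Ptgs2 were Ptprn (Pearson r = 0.972), the AP-1 subunit gene Junb (0.967) and the integrin gene Itgav (0.966). For Ptger2 they were Cdk17 (0.945), Eef1e1 (0.935) and Msantd3 (0.933). For Ptgs1 they were Igfbp6 (0.995), Armcx2 (0.987) and Eml1 (0.977). These values describe libraries that share treatments and replicate numbers, and carry no test.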
